A study of Mus musculus with 4 samples.

Results

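The matrix metalloproteinases and their inhibitors were followed here as 10 genes chosen by name, out of 31054 features in the count tables: 7 metalloproteinases (Mmp2, Mmp3, Mmp12, Mmp13, Mmp14, Mmp19 and Mmp23) and 3 tissue inhibitors (Timp1, Timp2 and Timp3). All 10 were present in the tables and had UMIs, that is, counted mRNA molecules, in every library. The data were 4 single-cell RNA-seq libraries from the stromal vascular fraction of gonadal adipose tissue, which is the tissue left once the mature adipocytes are removed. The question followed was how these genes divide between adipose progenitor cells (APCs) and macrophages, and how that division looks in each library.

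Matrix metalloproteinases are zinc-dependent proteases that cut collagens, elastin, proteoglycans and other matrix proteins. They are made as inactive proenzymes, are switched on by removal of a propeptide, and are held in check by the TIMPs, which bind the active site. In adipose tissue they take part in the remodelling of matrix and vessels as the depot grows or shrinks, and several of them are counted among the factors that senescent cells secrete.

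All libraries came from 18-month-old p16-CreERT2/R26-LSL-tdTomato mice, male and tamoxifen-treated in the study's methods. In these mice a CreERT2 recombinase under the p16 promoter switches on tdTomato, so that Tom+ marks cells in which the promoter was active when tamoxifen was given (p16-high cells), and Tom- the rest. The sort used tdTomato together with the leukocyte antigen CD45. It gave a CD45- Tom+ and a CD45- Tom- library, and likewise a CD45+ Tom+ and a CD45+ Tom- library, 1 of each and without replicates. The number of mice behind a library was not given in the sources used here. No group had a replicate library. A fit with the CD45 label as a term would leave 1 residual degree of freedom and was not made, so no p-value is given, and every interval covers counting error only.

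The libraries held 64083756 to 139397501 UMIs over 3429 to 11255 barcodes, and 1927 to 4391 cells per library were kept, 13878 in all. tdTomato stood at 713 and 715 CPM (counts scaled to a common total of UMIs) in the libraries labelled Tom+ and at 15.99 and 18.8 CPM in those labelled Tom-, whereas Cdkn2a, the gene of p16, lay between 6.81 and 7.64 CPM in all 4. The CD45 labels were not matched by the counts: Ptprc, the CD45 gene, read 217 and 158 CPM in the libraries labelled CD45- against 223 and 188 CPM in those labelled CD45+, and APCs and macrophages were found in each, so these names are used as labels only. The libraries also shared barcodes, 4394 of them between both Tom- libraries and 26 to 1134 in the other pairings, where the deeper copy held a median of 32928 to 63638 UMIs and the shallower copy 721.5 to 1494. Of the kept cells, 3545 carried a barcode seen in another library and 98 had their deeper copy elsewhere, and results were also computed without them.

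Cells were grouped by expression and named from marker genes. The APC-like cells (5 clusters) numbered 263, 1520, 106 and 1713 in CD45- Tom+, then CD45- Tom-, then CD45+ Tom+ and last CD45+ Tom-, the order used for every set of 4 values below. The macrophage-like cells (clusters 3 and 15) numbered 556, 204, 280 and 279. The 10 APC markers summed to 29785 to 34044 CPM in APC-like and 91.4 to 360.5 CPM in macrophage-like cells, and the 10 macrophage markers to 10630.5 to 11474 and 69.6 to 234 CPM the other way round. A further group with the leading genes Arg1 and Spp1 (cluster 2; 197, 364, 108 and 445 cells) raised 9 of the 10 macrophage markers but also led with the monocyte marker Itgam, and a Saa3- and Cxcl13-high stromal group (cluster 7; 201, 255, 82 and 246 cells) raised APC and mesothelial markers alike, so both are described by number.

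Mmp3 was read from APC-like cells, and Mmp12 and Mmp13 from macrophage-like cells. All 3 lie in the metalloproteinase cluster of mouse chromosome 9 (build mm10), on the plus strand: Mmp13 at 7272514 to 7283331, Mmp12 at 7344381 to 7369499 and Mmp3 at 7445822 to 7455975. The distance from Mmp13 to Mmp12 is 61.0 kb and that from Mmp12 to Mmp3 76.3 kb, and genes lying between them were not looked for. RefSeq promoters (GRCm38.p6) were matched for 8 of the 10 members, in 10 windows of 250 bases before an annotated start, Mmp23 and Mmp12 having more than 1 start. The AP-1 motif TGANTCA (spelled TGAGTCA or TGACTCA and searched on both strands) was found in 3 windows, 1 each of Mmp3, Mmp12 and Mmp13, and in 4.46% of all 32851 promoter windows of the same length. Those windows are shown, 5′ to 3′ on the plus strand, with the motif in capitals, because these 3 genes carry the motif close to a start. The Mmp12 window lies before the second annotated start, inside the gene, and the window before the other Mmp12 start holds no such letters.
Mmp3, chr9:7445572-7445821: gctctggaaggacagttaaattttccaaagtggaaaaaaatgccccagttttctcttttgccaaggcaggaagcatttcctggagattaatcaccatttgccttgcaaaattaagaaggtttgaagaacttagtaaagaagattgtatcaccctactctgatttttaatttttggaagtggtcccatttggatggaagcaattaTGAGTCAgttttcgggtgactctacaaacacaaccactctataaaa
Mmp12, chr9:7347124-7347373: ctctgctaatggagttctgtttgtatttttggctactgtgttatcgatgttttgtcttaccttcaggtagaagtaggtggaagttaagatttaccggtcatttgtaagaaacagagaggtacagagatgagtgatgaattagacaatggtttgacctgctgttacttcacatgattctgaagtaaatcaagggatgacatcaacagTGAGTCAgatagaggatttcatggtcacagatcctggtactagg
Mmp13, chr9:7272264-7272513: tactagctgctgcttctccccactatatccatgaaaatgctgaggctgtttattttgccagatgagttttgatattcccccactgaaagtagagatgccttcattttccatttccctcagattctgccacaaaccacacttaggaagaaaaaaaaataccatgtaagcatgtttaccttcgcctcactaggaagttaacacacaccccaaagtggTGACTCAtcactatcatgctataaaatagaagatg
The motif begins 46, 44 and 35 bases before the start in Mmp3, Mmp12 and Mmp13. The letters TATAAA occur in the Mmp3 and Mmp13 windows as well, and in 12.4% of all promoter windows. A match of letters is not a binding site, and no factor's binding was measured here.

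The members divided between the classes in every library. Of the 9 members that reached a mean of 5 CPM over the classes compared, 6 were at least 4-fold higher in APC-like than macrophage-like cells in each of the 4 libraries (Mmp2, Mmp3, Mmp14, Mmp23, Timp1 and Timp3), against 12.9% of the 10025 genes that met the same minimum. Mmp12 was the 1 member at least 4-fold higher in macrophage-like cells in each library, against 6.79% of those genes. Mmp3 and Mmp23 reached the minimum only through the APC-like class, with at most 1.53 and 3.02 CPM in macrophage-like cells. The members and the gene lists below were chosen with earlier results of these data known, so their counts beside these shares are a description only. Timp2 and Mmp19 were read from both classes, and Mmp13 fell below the minimum. The median over all 10025 genes was 0.00 to 0.04 on the log2 scale in the 4 libraries.

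**Figure D1:**
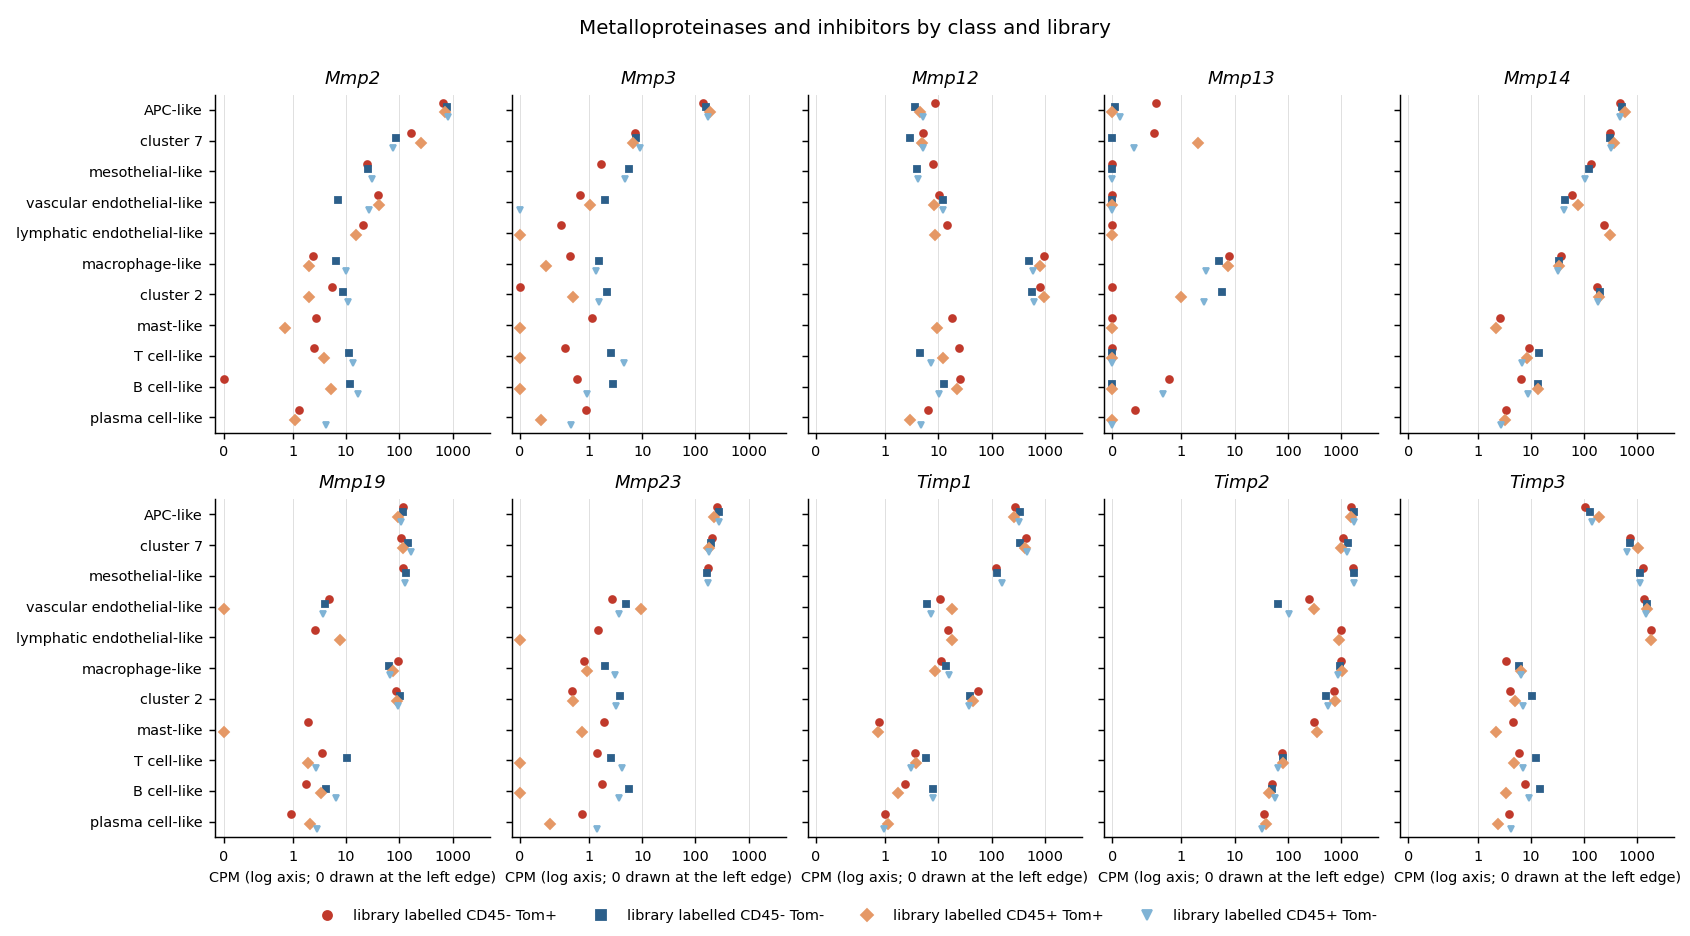
Level of each of the 10 members by cell class and library, as CPM of summed counts on a log axis with 0 at the left edge; points are libraries, and classes with at least 50 cells in a library are drawn. Mmp2 sits between 668 and 820 CPM in APC-like cells and at or below 9.97 CPM in macrophage-like cells, Mmp12 shows the opposite order, and Timp2 is above 500 CPM in both classes, in clusters 2 and 7, and in the mesothelial-like and lymphatic endothelial-like cells.

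Mmp2, which encodes gelatinase A, the protease of denatured collagen and basement membrane (chromosome 8, 92827291 to 92853420), was the most abundant metalloproteinase message of the APC-like cells by UMI count, which in these 3′ libraries does not grow with transcript length. It stood at 668, 789, 720.2 and 819.9 CPM there and at 2.43, 6.55, 2.01 and 9.97 CPM in macrophage-like cells. The ranges are far apart in all 4 libraries, with log2 ratios of 8.10, 6.91, 8.49 and 6.36, and the narrowest 95% counting interval was 6.01 to 6.73 in the library CD45+ Tom-. Nearly every APC-like cell carried the message: 98.1% to 98.9% of them had at least 1 Mmp2 UMI, and 67.2% to 71.0% once each cell was thinned to 2000 UMIs. B cell-like cells, which should not make Mmp2, gave the background, 0 of 197 cells (at most 1.52%) up to 10.7% unthinned and up to 4% thinned, at median depths of 5296 to 6510 UMIs against 21349 to 23480 in APC-like cells. The share in macrophage-like cells, 4.64% to 16.1% unthinned and 0.357% to 1.79% thinned, lay within or close to that background, so their Mmp2 counts are not read as expression.

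Mmp3, which encodes stromelysin 1, an activator of other metalloproteinases, was confined to fewer cells. Its level was 137, 159, 188 and 174 CPM in APC-like cells and 0.429, 1.53, 0.154 and 1.36 CPM in macrophage-like cells, where 6, 7, 1 and 9 UMIs were counted. All 4 libraries again separate, with log2 ratios of 6.70 to 10.2, the upper value resting on the single macrophage-like UMI of the library CD45+ Tom+. Only 27.4% to 34.4% of APC-like cells had an Mmp3 UMI (11.8% to 13.6% thinned), against 0% to 1.44% of B cell-like cells (0% to 1.45% thinned). The highest 10% of APC-like cells held 81.0% to 85.9% of all Mmp3 UMIs, against 30.4% to 31.8% of the Mmp2 UMIs.

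Mmp12, which encodes macrophage elastase, showed the reverse order. It stood at 953, 503, 823 and 605 CPM in macrophage-like cells and at 8.78, 3.68, 4.48 and 5.08 CPM in APC-like cells. The log2 ratios of APC-like over macrophage-like cells were -6.76, -7.09, -7.52 and -6.90, with no overlap in any library. The share of macrophage-like cells with an Mmp12 UMI was 42.1%, 34.8%, 37.9% and 38.4% (19.8%, 16.3%, 17.5% and 15.8% thinned), whereas B cell-like cells gave 7.33% to 17.8% (2.74% to 7.11% thinned) and APC-like cells 7.89% to 17.1% (0.856% to 1.89% thinned), so the APC-like share is read as background.

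The Mmp12 message was also very unevenly spread among the macrophages. The highest 10% of macrophage-like cells held 92.0%, 91.0%, 90.8% and 92.5% of the class's Mmp12 UMIs, and the largest number in a single cell was 1018, 539, 896 and 884 UMIs. In the same cells the highest 10% for Timp2 held 25.1% to 28.9% of its UMIs. The Mmp12-rich cells, 56, 20, 28 and 28 in number, held 40, 17, 30 and 15 or more Mmp12 UMIs each and fell almost wholly into cluster 3 (52, 20, 25 and 27 of them), while 322, 133, 174 and 172 macrophage-like cells had none. They were also deeper, with a median of 39367, 28121, 41545 and 35096.5 UMIs per cell against 22887, 20763.5, 21292 and 21185 in the class, and the part of this in the spread was not tested. A difference between libraries in Mmp12 therefore rests on 20 to 56 cells.

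Mmp13, which encodes collagenase 3, was scarce. Macrophage-like cells gave 108, 23, 48 and 19 UMIs, or 7.73, 5.02, 7.41 and 2.87 CPM, and APC-like cells 2, 2, 0 and 3 UMIs, at or below 0.331 CPM. In the library CD45+ Tom+ the count of 0 in 106 APC-like cells allows a level of up to 1.12 CPM. Of macrophage-like cells 2.87% to 5.88% had an Mmp13 UMI (0.357% to 2.14% thinned), against 0% to 0.508% of B cell-like cells, and no more than 10% of them held all of its UMIs, up to 20 in a single cell.

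Mmp19, a secreted protease of basement membrane proteins (chromosome 10, 128790910 to 128800824), was shared. It stood at 119, 117, 93.99 and 108 CPM in APC-like cells and at 94.6, 65.3, 75.8 and 65.9 CPM in macrophage-like cells. APC-like cells were the higher class in each library, by 0.34, 0.84, 0.31 and 0.71 on the log2 scale, with intervals above 0, and well short of 4-fold. An Mmp19 UMI was found in 72.6% to 77.9% of APC-like cells (13.2% to 18.3% thinned), 44.6% to 48.0% of macrophage-like cells (7.39% to 10.3% thinned) and 1.52% to 4.33% of B cell-like cells (0.667% to 1.37% thinned).

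Mmp14, which encodes the membrane-anchored MT1-MMP that cuts fibrillar collagen at the cell surface (chromosome 14, 54431612 to 54445364), read 467, 508, 581 and 477 CPM in APC-like cells. Macrophage-like cells gave 37.1, 33.6, 34.6 and 32.8 CPM. The log2 ratios were 3.65, 3.92, 4.07 and 3.86, a smaller gap than for the secreted Mmp2 and Mmp3. Unlike these, Mmp14 in macrophages stood above the level of B cell-like cells, 6.51 to 13.8 CPM. Of macrophage-like cells 25.4% to 32.7% had an Mmp14 UMI, against 4.33% to 8.17% of the shallower B cell-like cells. After thinning the ranges met, at 3.94% to 8.21% against 0.333% to 4.11%. Cluster 2 was higher still, at 176, 196, 195 and 186 CPM and with 73.7% to 77.7% of cells holding a UMI (24.9% to 37.96% thinned). When cluster 2 was counted with the macrophages, the log2 ratio of Mmp14 fell to 2.75, 1.98, 3.00 and 2.01, and Mmp14 no longer passed 4-fold in every library.

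Mmp23, a membrane-anchored metalloproteinase that is released by cleavage (chromosome 4, minus strand, 155650655 to 155653384), was stromal. It stood at 259, 275, 227 and 273 CPM in APC-like cells and at 0.787, 1.97, 0.926 and 3.02 CPM in macrophage-like cells, with 11, 9, 6 and 20 UMIs. The log2 ratios were 8.36, 7.13, 7.94 and 6.496. Of APC-like cells 91.3% to 95.04% had an Mmp23 UMI (33.0% to 41.98% thinned), and the macrophage-like share of 1.80% to 6.81% (0% to 0.985% thinned; 0 of 280 thinned cells allows up to 1.07%) was near that of B cell-like cells, 0% to 3.85% (0% to 1.45% thinned).

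**Figure D2:**
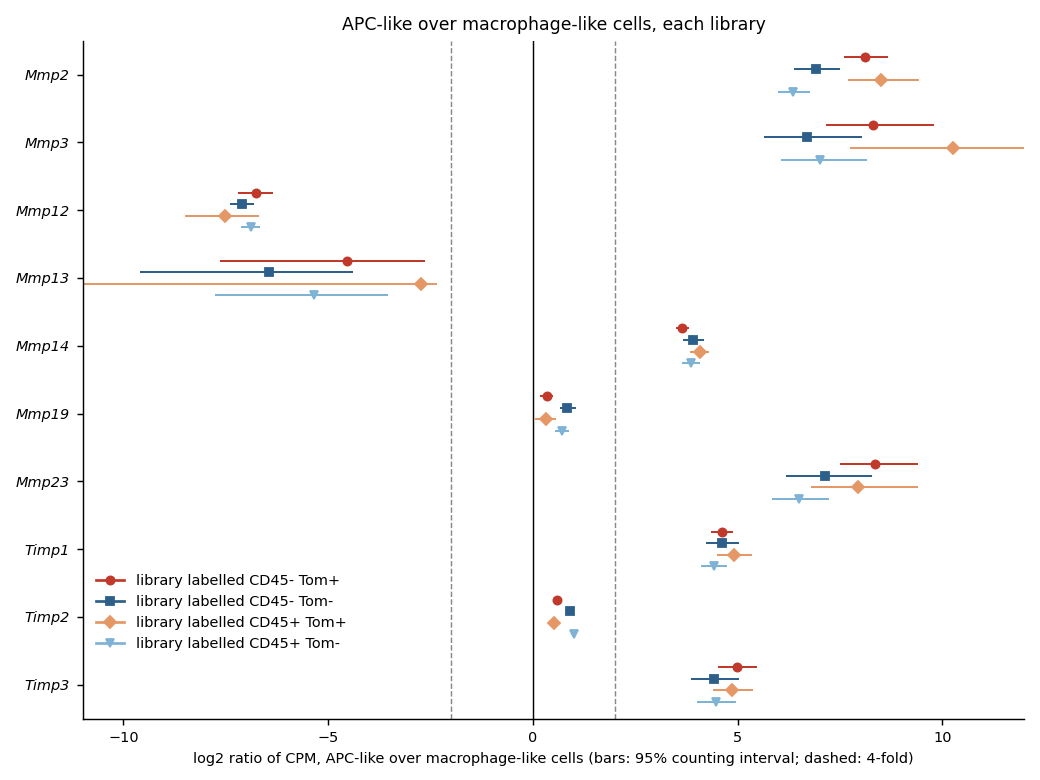
Log2 ratio of CPM, APC-like over macrophage-like cells, for each member and library; bars are 95% counting intervals (ends beyond the axis not drawn), and dashed lines mark 4-fold. For Mmp13 in the library CD45+ Tom+ the point is drawn at the bound that 0 APC-like UMIs allows. Mmp2, Mmp3, Mmp14, Mmp23, Timp1 and Timp3 lie right of the 4-fold line in all 4 libraries, Mmp12 lies left of it at -6.76 to -7.52, and Mmp19 and Timp2 stay between 0.31 and 0.999.

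The 3 inhibitors did not share a pattern. Timp1, the soluble inhibitor induced in injured and inflamed tissue (chromosome X, 20870166 to 20874735), read 269.96, 337, 264 and 332 CPM in APC-like cells and 11.1, 13.8, 8.80 and 15.6 CPM in macrophage-like cells. The log2 ratios were 4.60, 4.61, 4.91 and 4.41. A Timp1 UMI was found in 69.8% to 77.4% of APC-like cells (24.8% to 27.5% thinned) and 14.3% to 22.5% of macrophage-like cells (1.43% to 3.94% thinned), above the 1.37% to 5.67% of B cell-like cells (0% to 1.33% thinned).

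Timp2, which both inhibits metalloproteinases and bridges MT1-MMP to pro-MMP2 (chromosome 11, minus strand, 118301069 to 118355740), was the most abundant member by UMI count in either class. It stood at 1515, 1773, 1509 and 1759.8 CPM in APC-like cells and at 1010.2, 951, 1064 and 880.2 CPM in macrophage-like cells. APC-like cells were higher in each library, by 0.59, 0.90, 0.50 and 0.999 on the log2 scale. Both classes expressed it in almost every cell, 99.7% to 100% and 98.2% to 99.6% (90.8% to 95.6% and 77.1% to 80.7% thinned), against 23.3% to 31.98% of B cell-like cells (4.11% to 11.6% thinned).

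Timp3, the inhibitor that stays bound to matrix and also blocks ADAM and ADAMTS proteases (chromosome 10, 86300372 to 86349506), read 106, 130.4, 193 and 143 CPM in APC-like cells and 3.36, 6.12, 6.64 and 6.499 CPM in macrophage-like cells, with log2 ratios of 4.98, 4.41, 4.86 and 4.46. Of APC-like cells 47.2% to 52.8% had a Timp3 UMI (15.1% to 22.5% thinned). The macrophage-like share was 7.01% to 12.5%, and after thinning, at 0.493% to 2.15%, it lay within the range of B cell-like cells (2.74% to 7.21%, and 0% to 4.35% thinned), so it is read as background.

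Mmp2, Mmp14 and Timp2 are the parts of a known activation complex, in which MT1-MMP at the cell surface holds TIMP2, TIMP2 holds pro-MMP2, and a neighbouring MT1-MMP cuts it. All 3 messages were found together in 95.8%, 96.4%, 97.2% and 96.3% of single APC-like cells. Macrophage-like cells gave 1.80%, 4.41%, 2.14% and 4.66%. After thinning the APC-like shares were 34.4%, 39.9%, 34.0% and 40.4%, and no macrophage-like cell held all 3, which allows shares of up to 0.540% to 1.48%. Cluster 7 came between, at 51.7%, 50.2%, 63.4% and 43.9% (9.76% to 12.0% thinned), and B cell-like cells gave 0% to 0.333%. Mesothelial-like cells gave 26.5%, 33.4%, 39.4% and 38.7% (0% to 2.15% thinned, where 0 of 33 cells allows up to 9.09%). Cluster 2, with its macrophage markers, gave 4.57%, 10.7%, 2.78% and 13.5% (0% to 0.926% thinned, where 0 of 197 cells allows up to 1.52%).

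Within the APC-like class the members did not move as a block. Timp1 was lowest in the Ogn-led cluster 1, at 76.8, 93.7, 45.3 and 89.8 CPM, and highest in the Col1a1-led cluster 19, at 649, 781, 634 and 677 CPM, and these ranges do not overlap. Cluster 19 held 13 cells in the library CD45+ Tom+. Timp3 was lowest in the Sfrp1-led cluster 5, at 29.2, 38.3, 19.3 and 37.3 CPM, and stood at 130.3, 148, 118 and 158 CPM in cluster 1. Timp2 was highest in cluster 13, the cluster with Pi16 among its leading genes, at 2787, 3236, 2803 and 3141 CPM (6 cells in the library CD45+ Tom+), against 842 to 1987.6 CPM in the other APC-like clusters. The 842 CPM came from the 13 cells of cluster 19. Mmp3 in cluster 5 was the most variable value between libraries, 56.5, 190.5, 497 and 255 CPM, and the lowest and the highest came from the Tom+ libraries, where the cluster held 40 and 23 cells. The members were kept out of the clustering, but the clusters were formed from other genes of the same cells, so their differences are a description.

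**Figure D3:**
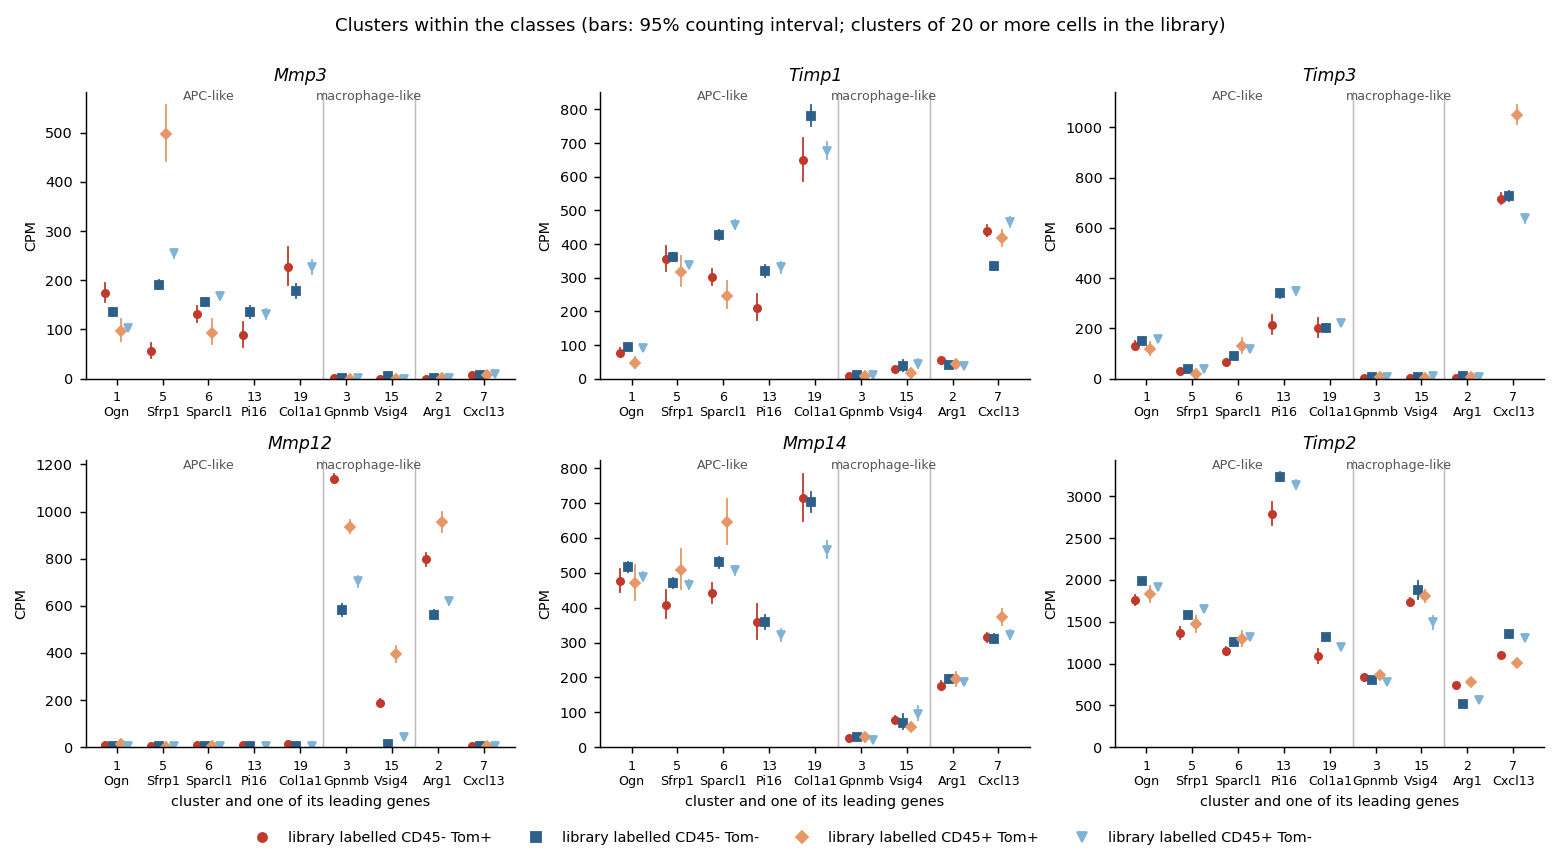
Level in CPM of 6 members in the 5 APC-like clusters, the macrophage-like clusters 3 and 15, and clusters 2 and 7, by library; bars are 95% counting intervals, clusters of at least 20 cells in a library are drawn, and the name under each number is a leading gene. Timp1 lies at 45.3 to 93.7 CPM in cluster 1 and at 649 to 781 CPM in cluster 19 (3 libraries drawn), Mmp12 is high in clusters 3 and 2 and lower in cluster 15, and Mmp14 is 176 to 196 CPM in cluster 2.

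Within the macrophages, the Gpnmb-led cluster 3 and the Vsig4- and Marco-expressing cluster 15 differed in several members. Mmp12 stood at 1140.1, 582, 936 and 703 CPM in cluster 3 and at 187, 14.1, 393 and 43.7 CPM in cluster 15, lower in all 4 libraries. Timp2 and Mmp14 went the other way, Timp2 with 833, 802, 867 and 773 CPM in cluster 3 and 1737, 1874, 1812 and 1491 CPM in cluster 15. Mmp14 was 27.2, 27.7, 28.3 and 21.8 CPM in cluster 3 against 77.8, 70.6, 58.5 and 95.5 CPM in cluster 15, and Mmp19 69.0 to 110.3 CPM against 30.3 to 45.9 CPM. The Arg1- and Spp1-led cluster 2 carried Mmp12 at 796, 562, 954 and 621 CPM, a range that overlaps that of cluster 3, and Timp1 at 54.7, 39.4, 44.3 and 37.2 CPM, above the macrophage-like class in each library.

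Other stromal cells added to the inhibitors. Timp3 was higher outside the APC-like class than inside it: 1823 and 1827 CPM in lymphatic endothelial-like cells (the Tom+ libraries only), 1338 to 1528 CPM in vascular endothelial-like cells, 1127 to 1267 CPM in mesothelial-like cells and 717, 728, 1049 and 638 CPM in cluster 7. Every one of these ranges lay above the 106 to 193 CPM of APC-like cells. Timp2 reached 1658 to 1739 CPM in mesothelial-like cells, close to the APC-like level, and 32.5 to 39.6 CPM in plasma cell-like cells. Cluster 7, the Cxcl13-high group, held Timp1 at 439, 335, 419 and 466 CPM, above the APC-like level in 3 libraries and level with it in CD45- Tom- (335 against 337 CPM), and Mmp2 at 167, 86.3, 252 and 74.8 CPM, far below it.

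The classes were present in different shares in the libraries. APC-like cells made up 6.77% and 5.501% of the Tom+ libraries and 41.4% and 39.0% of the Tom- libraries, and macrophage-like cells 14.3% and 14.5% against 5.55% and 6.35%. Over all kept cells Mmp2 read 67.2, 383, 66.3 and 394 CPM, with log2 ratios of Tom+ over Tom- of -2.51 in the pair labelled CD45- and -2.57 in the pair labelled CD45+. Mmp12 went the other way, at 202, 83.7, 175 and 107 CPM, with log2 ratios of 1.27 and 0.71. The 3 TIMPs were all lower in the Tom+ libraries, Timp1 by log2 ratios of -1.74 and -2.05, Timp2 by -1.40 and -1.36, and Timp3 by -0.97 and -0.46. These values mix the number of cells of each class with the level per cell, and the sort decided which cells entered a library.

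The source of each message shifted accordingly. APC-like cells supplied 96.0% and 96.5% of the Mmp2 UMIs in the Tom- libraries but 62.9% and 61.3% in the Tom+ libraries, where cluster 7 supplied 17.0% and 23.0%. Timp1 came mainly from APC-like cells in the Tom- libraries (73.0% and 70.0%) and mainly from cluster 7 in the Tom+ libraries (46.6% and 47.7%). Timp2 came from macrophage-like cells for 28.9% and 29.0% of its UMIs in the Tom+ libraries and 4.35% and 4.98% in the Tom- libraries. Timp3 was led by mesothelial-like cells in the Tom- libraries (51.6% and 49.8%) and by lymphatic endothelial-like cells and cluster 7 in the Tom+ libraries (38.4% and 28.6%, then 28.1% and 30.3%). Mmp12 came from macrophage-like cells for 69.0% and 64.3% of its UMIs in the Tom+ libraries and 37.0% and 41.1% in the Tom- libraries, with cluster 2 at 57.9% and 53.1% in the latter.

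**Figure D4:**
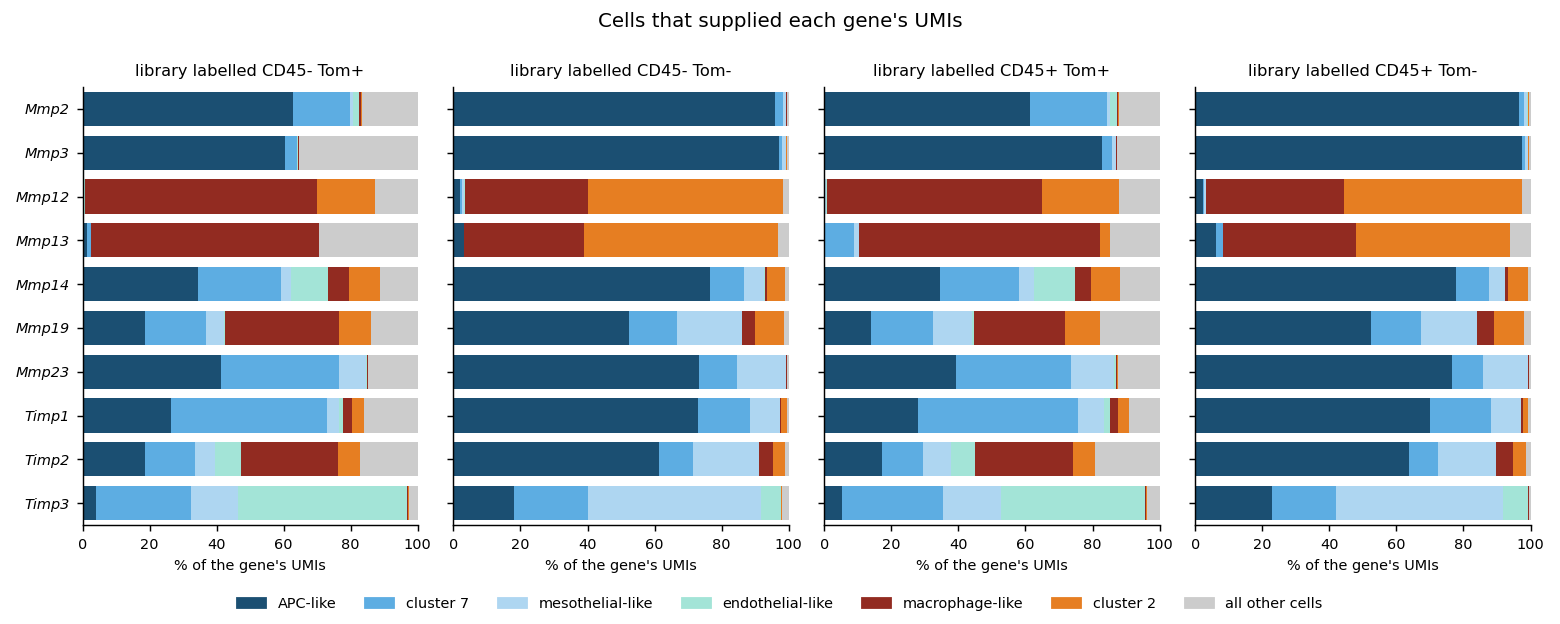
Share in percent of each member's UMIs that came from each group of cells, 1 panel per library; each bar sums to 100. APC-like cells supply 96.0% and 96.5% of Mmp2 in the Tom- libraries and 62.9% and 61.3% in the Tom+ libraries, and the macrophage-like part of Timp2 is 28.9% and 29.0% in the Tom+ and 4.35% and 4.98% in the Tom- libraries.

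Inside the APC-like class no member differed by 1.5-fold between Tom+ and Tom- cells in both pairs, a count that depended on which cells were named APC-like. Of 9 members that met the minimum of 5 CPM in the comparison, 0 were 1.5-fold or more higher or lower in the same direction in both pairs, against 1.35% of 9863 genes (1% higher and 0.345% lower). Within the pair labelled CD45-, Mmp12 alone was higher past 1.5-fold and 0 members were lower, the latter against 1.41% of genes. Mmp12 reached the minimum only through the CD45- Tom+ library, with 8.78 CPM against 3.68, 4.48 and 5.08 CPM in the others. It is therefore not read against the 1.84% of genes that were higher. Within the pair labelled CD45+ 0 members were higher or lower, against 2.66% and 4.07% of genes. Mmp2 was lower in Tom+ cells by log2 ratios of -0.24 in the pair labelled CD45- and -0.19 in the pair labelled CD45+, Timp2 by -0.23 and -0.22, and Timp1 by -0.32 and -0.33, and all 6 counting intervals lay below 0. Mmp3 gave -0.22 and 0.11 (interval of the latter -0.02 to 0.24), Mmp19 0.03 and -0.20, and Mmp23 -0.09 and -0.27. For Mmp3, 1 APC-like cell of the library CD45+ Tom+ held 133 of the 504 UMIs. For Timp3, 1 APC-like cell of the library CD45+ Tom+ held 191 of the 518 UMIs, and the ratio without it was not computed. Mmp14 gave -0.12 and 0.29 and Timp3 -0.30 and 0.43, so both had opposite signs in the pairs. This too depended on the clustering: Timp3 gave 0.99 and 1.89 at Leiden resolution 2 and 0.79 and 1.51 at resolution 0.5, higher in Tom+ cells of both pairs, and at resolution 0.5 Mmp14 gave -0.29 and -0.035, Mmp2 -0.71 and -0.69, and Mmp3 -0.94 and -0.80. At these resolutions 3.90% and 8.44% of all genes passed 1.5-fold in both pairs. Stromal clusters with leading genes of cluster 7 were then named APC-like. They were 340 cells led by Clu, Ptgis and Saa3 at resolution 2, and 856 cells led by Saa3 and Cxcl13 at resolution 0.5. Their part in these values was not tested. At resolution 1, Mmp12, at background in APC-like cells, gave 1.25 and -0.18. The median over all genes was -0.04 and -0.05. Without the cells whose barcode was seen in another library, Timp1 gave 0.46 and 0.20, the opposite direction, and Mmp2 -0.20 and 0.03, while Timp2 stayed lower under every alternative computed (-0.39 to -0.18 and -0.46 to -0.12).

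**Figure D5:**
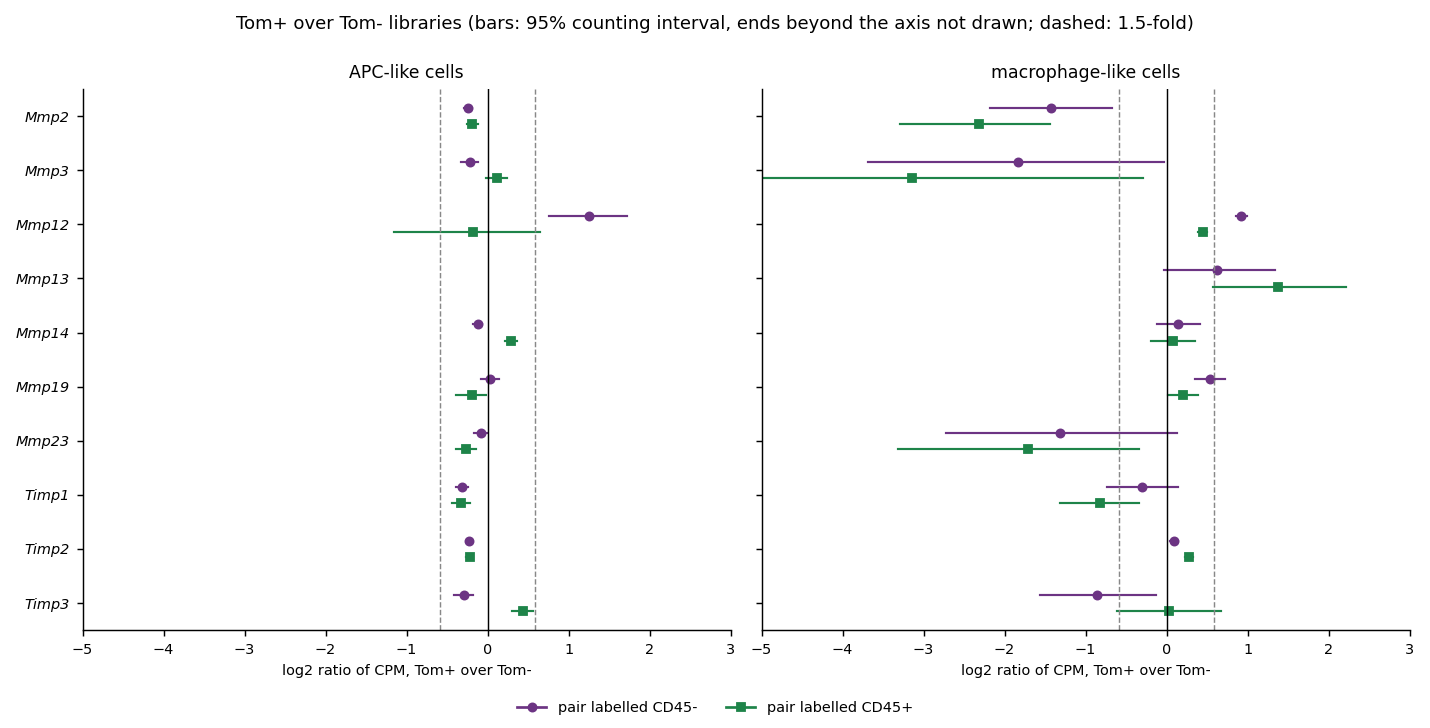
Log2 ratio of CPM, Tom+ over Tom- libraries, in APC-like (left) and macrophage-like cells (right) for the pairs labelled CD45- and CD45+; bars are 95% counting intervals, and dashed lines mark 1.5-fold. In APC-like cells no member passes 1.5-fold in both pairs, and in macrophage-like cells Mmp13 (0.62 and 1.37) and Mmp2 (-1.43 and -2.31) do among those above the minimum of 5 CPM.

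In macrophage-like cells 2 of 8 members above the minimum passed 1.5-fold in the same direction in both pairs, against 2.09% of 8904 genes (1.11% higher and 0.977% lower). In the pair labelled CD45- Mmp12 and Mmp13 were higher, against 2.62% of genes, and Mmp2 and Timp3 lower, against 2.4%. The Timp3 value rested on 47 against 28 UMIs, or 3.36 against 6.12 CPM, at a level already read as background. In the pair labelled CD45+ Mmp13 was higher, against 2.84%, and Mmp2 and Timp1 lower, against 2.99%. Mmp13 was higher in Tom+ cells, with log2 ratios of 0.62 (interval -0.04 to 1.34) and 1.37 (0.57 to 2.22). Both members reached the minimum only through the group where they were high, Mmp2 with 2.43 and 2.01 CPM in Tom+ against 6.55 and 9.97 CPM in Tom- cells and Mmp13 with 7.73 and 7.41 against 5.02 and 2.87 CPM, so their count is not read against the share over all genes. Mmp13 passed in both pairs in 4 of 14 settings. It did not at Leiden resolution 2 (0.29 and 0.79) or 0.5 (0.23 and 0.96), nor with each cell weighing the same (0.47 and 0.41). It rested on 108 against 23 and 48 against 19 UMIs, the pair labelled CD45- gave 0.50 without the 98 cells with a deeper copy elsewhere and -0.0064 with a looser filter on cells, and cluster 2 gave the opposite order, 0 against 37 and 2 against 22 UMIs. Mmp2 was lower in Tom+ cells, by log2 ratios of -1.43 and -2.31, at levels already described as near background. Mmp2 passed in both pairs in 11 of the 14 settings. It was not counted after thinning, where it gave -0.45 and -2.33, nor at Leiden resolution 0.5. Nor was it counted with cluster 12, described below, added to the macrophages, where it stood at 2.07, 6.13, 1.54 and 9.41 CPM. Mmp2 was also lower in Tom+ T cell-like cells (-2.20 and -1.80) and cluster 2 (-0.71 and -2.46). The part of RNA from other cells in these values was not tested.

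Mmp12 in macrophage-like cells was higher in the Tom+ library of both pairs, by 0.92 (0.86 to 0.99) and 0.44 (0.38 to 0.50) on the log2 scale, the latter short of 1.5-fold. Cluster 2 gave 0.50 and 0.62. B cell-like cells, which should lack Mmp12, were higher in the Tom+ libraries too, at 25.5 against 12.7 CPM and 22.4 against 10.1 CPM. The direction depended on which cells were counted as macrophages. Cluster 12, which raised 9 of the 10 macrophage markers and was left unnamed for its Jchain, held 211, 34, 114 and 41 cells, most of them from Tom+ libraries, and had Mmp12 at 92.7, 41.1, 74.9 and 17.4 CPM. With cluster 12 added, Mmp12 in the macrophages was 612, 434, 488 and 526 CPM, or 0.49 and -0.11 on the log2 scale, so the pair labelled CD45+ turned. With coarser clusters (Leiden resolution 0.5) the macrophage-like values were 0.46 and -0.23. Timp2 gave 0.09 and 0.27 in macrophage-like cells and 0.52 and 0.49 in cluster 2, and Mmp19 0.54 and 0.20 in macrophage-like cells, but with cluster 12 added Timp2 gave -0.28 and -0.17 and Mmp19 0.083 and -0.11. Outside these classes, Mmp2 in cluster 7 was higher in Tom+ cells, 0.96 (0.81 to 1.098) and 1.75 (1.59 to 1.91) on the log2 scale, opposite in sign to the APC-like cells. The highest 10% of cluster 7 cells held 58.4%, 60.1%, 52.8% and 65.3% of its Mmp2 UMIs. The share of cluster 7 cells with an Mmp2 UMI was 55.2%, 52.2%, 64.6% and 44.3%.

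Other cells' RNA moved with the Tom labels. The 7 plasma cell markers summed to 2323, 389.8, 2880.4 and 372 CPM in APC-like cells and to 2000.5, 325, 1859 and 288 CPM in macrophage-like cells, with none of the 7 at 0, higher in both Tom+ libraries. The 10 APC markers in macrophage-like cells went the other way, at 102.7, 266, 91.4 and 360.5 CPM, lower in both Tom+ libraries. The 10 macrophage markers in APC-like cells summed to 233.5, 76.7, 98.8 and 69.6 CPM, higher in both Tom+ libraries. The mix of clusters moved as well: cluster 5 held 40 of 263 and 23 of 106 Tom+ APC-like cells and 376 of 1520 and 402 of 1713 Tom- APC-like cells. With both libraries of a pair set to 1 mix of clusters the counts of members past 1.5-fold in both pairs were again 0 and 2. The part of other cells' RNA in the differences was not tested.

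Related genes were also counted by class, in lists to be read against the 12.9% of all genes that were higher in APC-like and the 6.79% that were higher in macrophage-like cells. Of 15 other metalloproteinase genes in the tables, Mmp11, stromelysin 3, was the 1 that met the minimum, and it was stromal: 156 to 179.7 CPM in APC-like against 0.309 to 2.57 CPM in macrophage-like cells, a log2 ratio of 6.13 to 8.98. Mmp9, gelatinase B, stood at 818 and 847 CPM and Mmp8, the neutrophil collagenase, at 77.4 and 138 CPM in neutrophil-like cells of the Tom- libraries, with at most 6.499 and 1.53 CPM in the macrophages. Timp4 was read from vascular endothelial-like cells at 114 to 219 CPM and at most at 1.09 CPM in either class. Among 16 ADAM and ADAMTS genes, all above the minimum, 9 were at least 4-fold higher in APC-like cells in each library and 1 in macrophages, with a median log2 ratio over the list of 3.35. Adamts5, an aggrecanase, stood at 808 to 1042 CPM in APC-like against 1.36 to 6.12 CPM in macrophage-like cells, and Adamts2, the procollagen N-proteinase, at 726 to 863 against 1.39 to 6.35 CPM. Adam8, a protease of myeloid cells, was the exception, at 220.1 to 271 CPM in macrophage-like and 2.24 to 5.13 CPM in APC-like cells.

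The genes that activate or clear metalloproteinases were split. Of 15 listed, 12 met the minimum, 4 were at least 4-fold higher in APC-like cells in each library, Plat, Serpine2 and Reck among them, and 2 in macrophage-like cells (Plaur and Ctsb), against the same 12.9% and 6.79% of all genes. Plat, tissue plasminogen activator, read 252 to 312 CPM in APC-like and 1.39 to 8.16 CPM in macrophage-like cells, and Serpine2, a protease inhibitor, 124 to 168 against 0.787 to 1.23 CPM. Plaur, the urokinase receptor, read 77.7 to 84.5 CPM in macrophage-like and 15.9 to 19.02 CPM in APC-like cells, and the lysosomal protease Ctsb 6807 to 7394 against 653 to 789.7 CPM. In the Tom comparisons 0 genes of these lists passed 1.5-fold in both pairs in either class. The stress genes that tissue digestion induces also divided by class, and their part in the results was not tested: 14 of them summed to 28780 to 30524 CPM in APC-like cells and 7942 to 8535 CPM in macrophage-like cells, and 7 of the 14 were at least 4-fold higher in APC-like cells in each library, against 12.9% of all genes.

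Genes whose levels ran most alike with each member were ranked by Pearson's r over 50 sums of class and library, among 6917 genes; these sums share libraries and cells, so r is a description. Mmp2 ran closest to Mfap2 (0.951), Col5a3 and Thbs2, and Mmp3 to Dpt (0.938), Sfrp1 and Col14a1, all matrix or secreted genes of stromal cells. Mmp12 ran closest to C1qc (0.956), C3ar1 and C1qa, complement genes of macrophages, and Mmp13 to Fcrls (0.829), Folr2 and Pf4. Mmp14 was nearest to Ptgfrn (0.952), Mmp19 to Trf (0.892) and Mmp23 to Bicc1 (0.972) and Pdgfra (0.969). The inhibitors had 3 separate sets of neighbours, Ugdh (0.920), Tmem119 and Fzd1 for Timp1, Ltbp3 (0.923), Il11ra1 and Crtap for Timp2, and Tm4sf1 (0.973), Sorbs2 and Ptprk for Timp3.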

How the data were processed

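Single-cell libraries (10x 3′) of sorted gonadal adipose stromal vascular cells were aligned by the authors with Cell Ranger 3.0.2 to mm10, and the deposited values are raw UMI counts per gene and barcode, 1 library per group. The members and gene lists were chosen with earlier results of these data known. Barcodes were kept when more than 1000 but fewer than 7000 genes were detected and mitochondrial UMIs stayed below 8%, and Scrublet calls were removed at 0.8% per 1000 barcodes. Cells were clustered with scanpy 1.11.5 (2000 variable genes, 30 components, 15 neighbours, leidenalg 0.10.2 at resolution 1), with 107 genes, the members and lists among them, kept out of clustering. Of 29 clusters 23 were named, each from at least 3 markers at 20 CPM or more and 4-fold raised. These limits, and a 10-fold limit on Jchain that left clusters numbered, were set after the data were seen. Counts were summed per class and library and divided by the class total (CPM). A member or gene was counted as different when 4-fold apart between classes in all 4 libraries, or 1.5-fold apart between Tom+ and Tom- in both pairs, at a mean of 5 CPM or more. Intervals are exact at 95% (Poisson, binomial, or conditional for ratios; scipy 1.17.1) and cover counting error only, and a count of 0 was given the limit of 3 counts. Shares were also computed on cells thinned to 2000 UMIs. All members are named, and of the lists at most 10 genes past the fold per comparison, largest first, with Mmp8, Mmp9 and Timp4 added after their values were seen. The values of 1 listed gene are not reported here. On simulated counts for the APC-like pair labelled CD45- (9910 genes), 98 to 100% of the genes changed by 1 or 2 on the log2 scale and 0.412% of the others passed 1.5-fold. These counts held counting error only and 1 pair, so 0.412% is not a rate of false calls in the data. pandas 2.3.3, numpy 2.4.6 and matplotlib 3.10.9 were used.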

Additional observations from a re-analysis of the deposited data

Results flagged for a closer look

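A few members moved in opposite directions between the pairs or the classes, and none of these differences was tested, since each value comes from 1 library against 1 library. In APC-like cells the log2 ratio of Tom+ over Tom- for Mmp14 was -0.12 in the pair labelled CD45- and 0.29 in the pair labelled CD45+, and for Timp3 -0.30 and 0.43. The Timp3 value of the pair labelled CD45+ leaned on 1 Tom+ cell, which held 191 of the 518 UMIs. In the pair labelled CD45+, Mmp19 was -0.20 in APC-like and 0.20 in macrophage-like cells. Timp2 was lower in Tom+ APC-like and higher in Tom+ macrophage-like cells of both pairs, with -0.23 against 0.087 in the pair labelled CD45- and -0.22 against 0.27 in the pair labelled CD45+. With cluster 12 added to the macrophages, Timp2 was lower in both pairs (-0.28 and -0.17) and Mmp19 was -0.11 in the pair labelled CD45+, so these opposite directions between the classes were no longer seen. Timp3 in APC-like cells was higher in both pairs at Leiden resolution 2 (0.99 and 1.89) and 0.5 (0.79 and 1.51).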

How the results depend on the processing

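The division by class held in every setting computed: 6 members were higher in APC-like cells, except for 5 with cluster 2 added to the macrophages, and 1 in macrophage-like cells, or 2 with no minimum CPM, when Mmp13 entered. Leaving out any 1 library gave 6 and 1 again. The Tom comparisons moved more. In APC-like cells the count of 0 became 1 at Leiden resolution 2 (Timp3; 3.90% of all genes passed in that setting) and 3 at resolution 0.5 (Mmp2, Mmp3 and Timp3; 8.44%). In macrophage-like cells the count of 2 became 1 at Leiden resolution 2 (2.35% of all genes), with each cell weighing the same (2.88%), at 2-fold (0.977%) and without cells with a deeper copy of their barcode elsewhere (2.10%), each time Mmp2. It was 1, Timp1, at resolution 0.5 (5.97%) and with cluster 12 added (5.98%), 0 after thinning to 2000 UMIs (6.91%), 4 with no minimum CPM (5.32%) and 3 without all shared barcodes (2.47%). Among values past the fold, Mmp13 turned to -0.0064 and Timp3 to 0.036 with the looser filter (500 genes, 20% mitochondrial), and Timp3 to 1.35 after thinning, all as Tom+ over Tom- log2 ratios in macrophage-like cells of the pair labelled CD45-. The Mmp13 class ratio in CD45+ Tom+ turned to 0.40 after thinning, at counts near 0. Smaller values turned too: over all settings 51 of 414 Tom ratios and 1 of 398 class ratios changed sign. The causes were not tested. The deeper-copy, cluster 2 and cluster 12 settings were chosen after seeing the data. The labels give no replicate numbers to pair libraries by, and no paired test was made. Depth limits Mmp13 and the macrophage-like counts of Mmp2, Mmp3 and Mmp23.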
